A study of Mus musculus with 9 samples.

Results

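The 14-3-3 protein genes Ywhab, Ywhae, Ywhag, Ywhah, Ywhaq and Ywhaz were followed in hippocampal RNA-seq libraries of Angelman syndrome mice. They are the 6 rows with these gene names among the 54532 genes of the count table. The family was selected because Ywhae is listed as raised in the study, which called genes from the comparison of Ant-134 with Scr in these same 9 mice. The difference between Ant-134 and Scr is therefore given for the members as a description, with no p value, and counts of calls among them are not read as evidence. Levels of the members relative to each other and their covariation among mice of a group were not used for the selection and were tested.

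All mice were N4 Ube3am-/p+, so both groups lacked a working maternal copy of Ube3a, the imprinted ubiquitin ligase gene that is lost in Angelman syndrome. N4 mice come from repeated backcrossing to the 129Sv/Ev strain, which makes them susceptible to seizures evoked by sound. Ant-134, an antisense oligonucleotide against the microRNA miR-134, was given to 5 mice, and Scr, a scrambled oligonucleotide, to 4 mice, in each case into the cerebral ventricle at postnatal day 21. The mice were exposed to a seizure-inducing sound at days 22, 24 and 26, and the brains were removed 24 h after the last exposure. The study reports milder seizures with Ant-134 over such trials and a tendency toward better survival. Effects of the oligonucleotide on RNA and effects of a different seizure history or survival therefore cannot be told apart in this design. Each replicate was the hippocampus on the injected side of one mouse, homogenized whole and sequenced as poly-A-selected mRNA. Wild-type mice, uninjected mice and mice not exposed to the sound are not among these samples, and their sexes are not given in the labels.

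14-3-3 proteins are small adaptor proteins that form dimers and bind other proteins at phosphorylated serine or threonine residues. Binding can hold a client protein in the cytoplasm, block or stabilize its activity, or keep it from being dephosphorylated. They are abundant in the brain, where different isoforms pair with one another and act in signalling, neuronal migration and the trafficking of ion channels. The 6 genes encode the beta (Ywhab), epsilon (Ywhae), gamma (Ywhag), eta (Ywhah), theta (Ywhaq) and zeta (Ywhaz) isoforms.

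The oligonucleotide acts on miR-134, so its seed and the matches to it in the 14-3-3 transcripts are shown first. The mature mouse miR-134-5p lies at chr12:109734145-109734166 on the plus strand (RefSeq, GRCm38.p6), and capitals mark its seed, bases 2 to 8:
mmu-miR-134-5p: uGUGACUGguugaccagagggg
CAGTCAC, which pairs with all of this seed, and AGTCACA, which pairs with bases 2 to 7 and ends in an A opposite base 1, were searched in the longest annotated 3′ UTR of each gene. Ywhah and Ywhaz each held 1 match, to the shorter-paired AGTCACA in both, and the other 4 members, Ywhae among them, held no match. The match of Ywhah begins 194 bases and that of Ywhaz 1751 bases after the stop codon, and capitals mark the match within its surroundings:
Ywhah: ttgctttgAGTCACAgggcgct
Ywhaz: tggggctaAGTCACAcccaaag
A share of 2 of 6 members stood beside 19.3% of all 15248 genes with an annotated 3′ UTR, and beside 19.7% of the 6551 genes with a 3′ UTR of 771 to 2586 bases, the range of the members. A match is a stretch of sequence and not evidence of binding.

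The members are spread over 5 chromosomes, all as protein-coding genes (coordinates of GRCm38). Ywhab lies at chr2:163994960-164018588 on the plus strand, Ywhae at chr11:75732869-75765845 on the plus strand and Ywhaq at chr12:21390071-21417637 on the minus strand. Ywhaz lies at chr15:36770770-36796929 on the minus strand. Ywhah at chr5:33018816-33027966 on the plus strand and Ywhag at chr5:135908409-135934616 on the minus strand share a chromosome but are far apart. Promoter sequences, from 250 bases before to 50 bases after the transcription start, were matched in RefSeq for 4 members, Ywhah, Ywhag, Ywhae and Ywhaq. Those of Ywhae, the gene the family was selected for, and of Ywhah and Ywhag, the pair with the highest correlation over the 9 mice, are shown 5′ to 3′ along the strand of the gene. Capitals mark the cAMP response element TGACGTCA in Ywhah (chr5:33018566-33018865) and its shorter core TGACG, read on the opposite strand, in Ywhag (chr5:135934592-135934891), and the promoter of Ywhae (chr11:75732637-75732936) has neither:
Ywhah: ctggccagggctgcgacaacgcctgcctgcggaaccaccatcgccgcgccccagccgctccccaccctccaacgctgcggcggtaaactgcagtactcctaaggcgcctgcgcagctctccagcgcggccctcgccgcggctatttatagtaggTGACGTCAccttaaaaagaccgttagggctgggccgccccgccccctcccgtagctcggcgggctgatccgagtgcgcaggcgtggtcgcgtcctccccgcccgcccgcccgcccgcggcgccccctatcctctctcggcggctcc
Ywhag: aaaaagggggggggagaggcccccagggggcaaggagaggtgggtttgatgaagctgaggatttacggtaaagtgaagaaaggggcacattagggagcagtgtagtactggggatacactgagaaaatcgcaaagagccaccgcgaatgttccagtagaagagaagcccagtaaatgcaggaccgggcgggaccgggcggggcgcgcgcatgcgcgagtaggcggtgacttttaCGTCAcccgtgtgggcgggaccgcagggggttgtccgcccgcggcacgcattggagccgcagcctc
Ywhae: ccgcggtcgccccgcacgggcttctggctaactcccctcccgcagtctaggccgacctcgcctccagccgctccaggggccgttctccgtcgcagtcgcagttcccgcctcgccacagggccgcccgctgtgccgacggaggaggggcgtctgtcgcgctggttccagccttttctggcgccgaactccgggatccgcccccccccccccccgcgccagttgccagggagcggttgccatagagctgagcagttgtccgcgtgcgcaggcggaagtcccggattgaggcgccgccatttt
Both strands were searched, and a full element contains the core on each strand. Of all 32544 mouse promoters of this length, 1.80% held TGACGTCA and 20.9% held TGACG, against 1 and 2 of the 4 member promoters. The GC box GGGCGG was found in 3 of the 4, all but Ywhaq, and in 35.9% of all promoters. The 4 promoters were rich in CpG, with 38 in Ywhah, 36 in Ywhae, 30 in Ywhaq and 23 in Ywhag, where the median of all promoters was 7. Each motif searched contains a CpG, and the shares over all promoters are not matched for CpG.

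All 6 genes were among the most abundant in the hippocampus, at or above percentile 97.4 of genes tested on the FPKM scale (the deposited values, in which counts are divided by the length of the gene and the size of the library). Over the 9 mice, Ywhah had the highest level with 297 ± 14.1 FPKM (SD, n = 9), followed by Ywhae with 282 ± 7.48 FPKM and Ywhag with 250.1 ± 8.85 FPKM. Ywhab with 173 ± 4.90 FPKM and Ywhaz with 169.7 ± 6.34 FPKM came next, and Ywhaq was lowest with 79.3 ± 2.73 FPKM. The highest and the lowest member were 3.75-fold apart. Each neighbouring pair in this order was compared within mice, with an exact two-sided sign-flip permutation test of the log2 ratio. Ywhah exceeded Ywhae, Ywhae exceeded Ywhag, Ywhag exceeded Ywhab and Ywhaz exceeded Ywhaq in 9 of 9 mice, each with an exact p = 0.00391, the smallest that 9 mice can give, and 0.00488 after adjustment over the 5 pairs. Ywhab and Ywhaz were not told apart, since Ywhab was higher in 6 of 9 mice with a mean log2 ratio of 0.030 ± 0.040 (SD, n = 9; exact permutation p = 0.0586, also after adjustment). This pair passed without Ant-134 replicate 2, Ant-134 replicate 4 or Scr replicate 3, when all 5 pairs were told apart, so the call rests on single mice.

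The middle of this order rests on the gene length used. The deposited length joins all exons of all transcripts of a gene, 3709 bases for Ywhah, 2568 for Ywhae and 5500 for Ywhag. With the length of the longest coding transcript instead, an alternative chosen after the data were seen, Ywhah was again highest with 631 ± 30.2 CPM per kilobase (SD, n = 9) and Ywhaq lowest with 112 ± 3.73. Ywhag with 395 ± 13.9 then stood above Ywhae with 348 ± 8.84, and Ywhaz with 215 ± 8.14 above Ywhab with 196 ± 5.53, each in 9 of 9 mice. The order between Ywhae and Ywhag and that between Ywhab and Ywhaz therefore change with the length used.

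**Figure D1:**
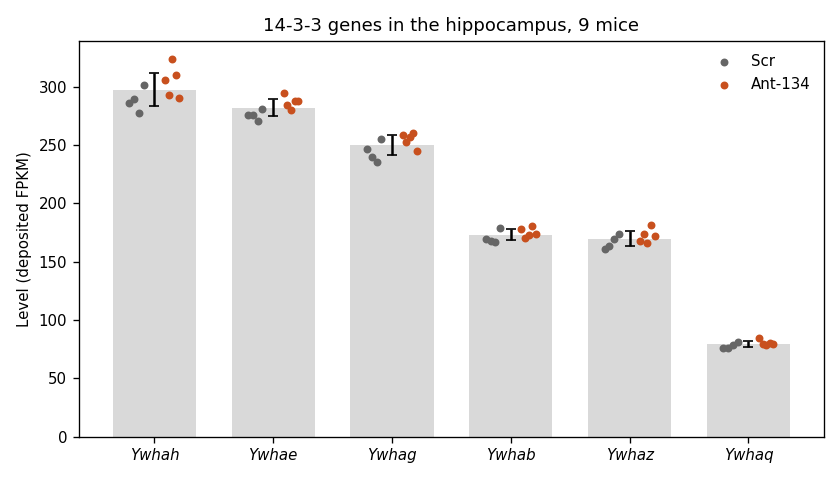
Level of each 14-3-3 gene in deposited FPKM (vertical axis, from 0). Bars are means over 9 mice, error bars are SD and points are single mice, grey for Scr and orange for Ant-134. Ywhah, Ywhae and Ywhag stand between 236 and 323 FPKM in every mouse, Ywhab and Ywhaz between 161 and 182 and Ywhaq between 75.6 and 84.9.

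To compare treatments, counts were scaled to CPM, which divides them by the normalized size of the library. This scale is not divided by length and serves to compare mice, not genes. Each member was covered deeply, from 6830 counts for Ywhaq in one library to 56515 for Ywhag in another, so that counting error alone was at most 1.21% of a value. Across all genes, edgeR's quasi-likelihood test called 827 of 19782, or 4.18%, at the study's threshold of an unadjusted p value below 0.05, 1.49% higher and 2.69% lower in Ant-134, and 0 genes after Benjamini-Hochberg adjustment. DESeq2, the tool the study used, called 2.74% of 37435 genes at that threshold and 16 genes after adjustment. In bulk tissue, a change in the number of cells of a type and a change in RNA per cell cannot be told apart.

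All 6 members had a higher mean in Ant-134 than in Scr mice, by 2.35% to 5.39%, and in none of them were the groups separate. None of the 6 was called by edgeR, and 1, Ywhae, was called by DESeq2, which repeats the selection. Of all genes tested, 0.647% had every Ant-134 mouse above every Scr mouse. Because the family was selected on this contrast, nothing is read from these counts against the shares over all genes.

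Ywhae encodes the epsilon isoform, a binding partner of phosphorylated Ndel1 in neuronal migration. Its level was 761, 737, 727.2, 749 and 744 CPM in Ant-134 replicates 1 to 5 and 712, 718, 703 and 728.0 CPM in Scr replicates 1 to 4. Of the Ant-134 mice, 4 of 5 lay above every Scr mouse, and the groups met only where Ant-134 replicate 3 fell just short of Scr replicate 4. The means were 744 ± 12.7 (SD, n = 5) and 715 ± 10.3 CPM (SD, n = 4). The log2 fold change was 0.056 (SE 0.036) in edgeR and 0.061 (SE 0.030) in DESeq2. The other members had at most 3 Ant-134 mice above every Scr mouse.

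Ywhah encodes the eta isoform and had the largest difference of the family. Its level was 1140.5, 1096, 1212, 1165 and 1084 CPM in the Ant-134 mice and 1068, 1088, 1039 and 1130.3 CPM in the Scr mice. Ant-134 replicates 1, 3 and 4 lay above all Scr mice, while replicate 5 fell below Scr replicates 2 and 4. The means were 1139.5 ± 51.8 (SD, n = 5) and 1081 ± 38.5 CPM (SD, n = 4), a log2 fold change of 0.076 (SE 0.044). Without Ant-134 replicate 3, the highest mouse, it was 0.052, and without Scr replicate 4 it was 0.098. In DESeq2 Ywhah had a larger estimate than Ywhae, 0.081, with a larger standard error of 0.045.

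Ywhag encodes the gamma isoform, and variants in the human gene cause an early-onset epilepsy. Its level was 1433, 1404, 1429, 1449.8 and 1354 CPM in the Ant-134 mice and 1364, 1336, 1310.3 and 1418 CPM in the Scr mice. Ant-134 replicates 1, 3 and 4 were above all Scr mice, and replicate 5 was below Scr replicates 1 and 4. The means were 1414 ± 37.2 (SD, n = 5) and 1357 ± 46.0 CPM (SD, n = 4), a log2 fold change of 0.059 (SE 0.039). In DESeq2 this estimate was 0.064 (SE 0.038).

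Ywhaz encodes the zeta isoform, a binding partner of the cell death protein Bad. Its level was 694, 721, 692, 758 and 711 CPM in the Ant-134 mice and 667, 681, 704 and 724 CPM in the Scr mice. Only Ant-134 replicate 4 exceeded every Scr mouse. The means were 715 ± 26.7 (SD, n = 5) and 694 ± 25.04 CPM (SD, n = 4), a log2 fold change of 0.043 (SE 0.043).

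Ywhaq encodes the theta isoform and was the lowest of the family on either scale. Its level was 262, 245, 243, 249.9 and 244 CPM in the Ant-134 mice and 235, 235, 244 and 249 CPM in the Scr mice. Ant-134 replicates 1 and 4 lay above every Scr mouse, the latter by less than 1 CPM, and the other 3 lay among the Scr mice. The means were 249 ± 7.63 (SD, n = 5) and 241 ± 7.27 CPM (SD, n = 4), a log2 fold change of 0.048 (SE 0.041).

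Ywhab encodes the beta isoform and had the smallest difference. Its level was 605, 582, 591, 618 and 592 CPM in the Ant-134 mice and 576, 577, 572 and 611 CPM in the Scr mice. All 5 Ant-134 mice were above Scr replicates 1, 2 and 3, but only replicate 4 was above Scr replicate 4. The means were 598 ± 13.9 (SD, n = 5) and 584 ± 18.6 CPM (SD, n = 4), a log2 fold change of 0.033 (SE 0.040).

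**Figure D2:**
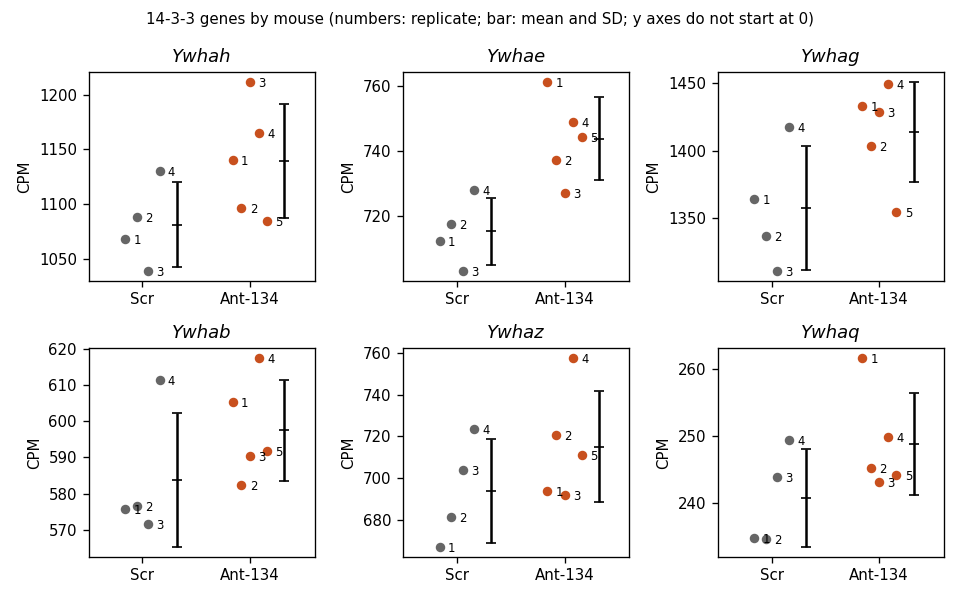
CPM of each 14-3-3 gene (vertical axes, which do not start at 0) in each mouse, with replicate numbers beside the points and the mean and SD of the group as a bar. Scr replicate 4 is the highest Scr mouse in all 6 panels, and the groups overlap in all 6.

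One Scr mouse overlapped the Ant-134 group in every gene. Scr replicate 4 was the highest Scr mouse for 6 of 6 members. Scr replicates 1 and 2 were below every Ant-134 mouse for 5 of 6 members each and Scr replicate 3 for 4 of 6. Without Scr replicate 4, the log2 fold changes were 0.057 for Ywhab, 0.065 for Ywhae, 0.081 for Ywhag, 0.098 for Ywhah, 0.066 for Ywhaq and 0.065 for Ywhaz. Leaving out another mouse raised or lowered the estimates. The lowest values were 0.020 for Ywhab and 0.021 for Ywhaz, both without Ant-134 replicate 4, and 0.029 for Ywhaq, without Ant-134 replicate 1. Without Scr replicate 1, Ywhaz was also at 0.021. For the other 3 members the lowest values were 0.048 for Ywhae, without Ant-134 replicate 1, 0.043 for Ywhag, without Scr replicate 3, and 0.052 for Ywhah, without Ant-134 replicate 3. Among the Ant-134 mice, replicate 4 was above every Scr mouse for 6 of 6 members and replicate 1 for 4 of 6, whereas replicates 2 and 5 were so for 1 of 6 each.

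The median log2 fold change of the members was 0.052, beside 0.0026 over all 19782 genes tested. Most genes as abundant as the members also had a positive estimate. Of the 644 genes with a mean between 245 and 1389 CPM, the range of the members, 78.0% had a higher estimate in Ant-134, with a median of 0.032 and quartiles of 0.0050 and 0.060. This band was chosen after the values were seen. Of the members, 5 of 6 lay between these quartiles and Ywhah lay above it.

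**Figure D3:**
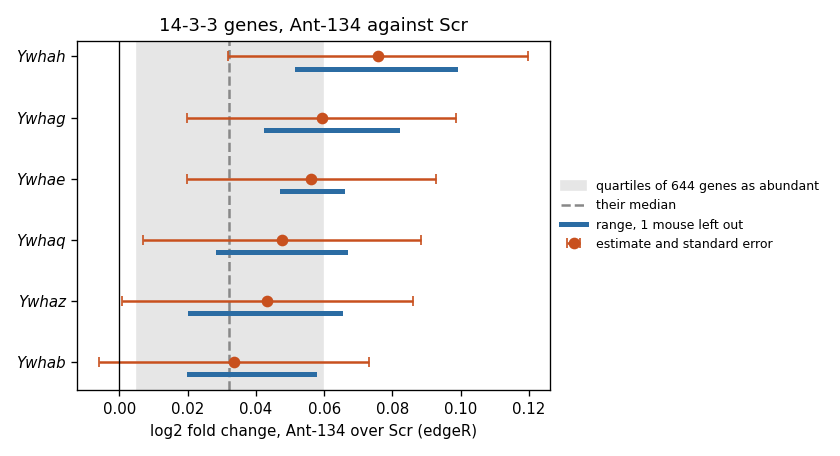
Log2 fold change of each 14-3-3 gene, Ant-134 over Scr (horizontal axis), with its standard error (orange) and its range when 1 mouse is left out (blue). The grey area lies between the quartiles of the 644 genes as abundant as the members, 0.0050 and 0.060, and the dashed line their median of 0.032, and 5 of 6 members lie inside the grey area.

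Summed over the family, the level was 4859 ± 102 CPM in Ant-134 (SD, n = 5), from 4730.3 to 4988, and 4672 ± 128 CPM in Scr (SD, n = 4), from 4572 to 4860.4. The 6 genes together took 0.483% ± 0.00756 of all counts in Ant-134 and 0.469% ± 0.0117 in Scr. The make-up of the family differed little between the groups (SD, n = 5 in Ant-134 and n = 4 in Scr). On the FPKM scale, Ywhah made up 23.9% ± 0.814 of the family in Ant-134 and 23.6% ± 0.334 in Scr. The share of Ywhae was 22.5% ± 0.487 and 22.5% ± 0.309, and that of Ywhag 19.997% ± 0.226 and 19.95% ± 0.287. For Ywhab the shares were 13.7% ± 0.174 and 13.96% ± 0.0860, for Ywhaz 13.5% ± 0.475 and 13.6% ± 0.366 and for Ywhaq 6.32% ± 0.172 and 6.36% ± 0.151. The ranges of the groups overlapped for all 6 shares.

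The members varied little between mice, and so did other genes of their abundance. The coefficient of variation of the members' CPM over the 9 mice, group difference and counting error included, was 2.54% for Ywhae, 2.82% for Ywhab, 3.34% for Ywhaq, 3.51% for Ywhag, 3.795% for Ywhaz and 4.79% for Ywhah. The biological coefficient of variation fitted by edgeR, which draws on other genes, was 6.11% to 6.96% for the members. Its median was 6.92% over the 644 genes as abundant and 11.4% over all genes tested.

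Over all 9 mice, the 15 pairs of members had positive Pearson correlations of log2 CPM, from 0.30 for Ywhah with Ywhaz to 0.86 for Ywhag with Ywhah, with a median of 0.67. These values include the difference between the groups, on which the family was selected, and are given with no test. Without the 2 mice farthest from the median they ran from 0.21 for Ywhab with Ywhaz to 0.93 for Ywhab with Ywhae. In 4 of the 9 mice all 6 genes lay on the same side of their mean, and in 5 mice they were mixed. With the group means removed, the 15 correlations had a lower median of 0.47 and ran from 0.079 for Ywhah with Ywhaz to 0.79 for Ywhag with Ywhah. In an exact two-sided permutation test within groups, added after the data were seen, 3 of 15 pairs had an unadjusted p value below 0.05, Ywhag with Ywhah (p = 0.0177), Ywhab with Ywhag (p = 0.0299) and Ywhab with Ywhae (p = 0.0479). None passed after Benjamini-Hochberg adjustment over the 15 pairs, where the smallest value was 0.224. On ranks within groups, 1 of 15 passed unadjusted and 0 adjusted in the same exact permutation test. Without the 2 mice farthest from the median, the correlations within groups ran from -0.58 for Ywhab with Ywhaz to 0.83 for Ywhae with Ywhah, so they rest in part on single mice. Covariation of the members within groups was therefore not established in these 9 mice.

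The level of the family in each mouse was summarized as the mean of the 6 standardized log2 levels, in units of SD over the 9 mice. It was 0.90, 0.066, 0.27, 1.20 and -0.060 in Ant-134 replicates 1 to 5 and -1.01, -0.90, -0.999 and 0.53 in Scr replicates 1 to 4. Scr replicate 4 stood above 3 of the Ant-134 mice on this measure. Across the other 19776 genes tested, the median Pearson correlation with this summary was -0.0055, and 11.3% of genes exceeded 0.5. The 5 genes most like the family over the 9 mice were Ghitm (r = 0.97), which encodes a mitochondrial membrane protein, Hsp90ab1 (0.97), which encodes a cytosolic chaperone, Sh3bp4 (0.96), Pgk1 (0.95), which encodes a glycolytic enzyme, and Tmem9b (0.94). Without the 2 mice farthest from the median these were 0.98, 0.95, 0.93, 0.97 and 0.96. They are the highest of 19776, include the difference between the groups and are given as a description with no test.

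Markers of neurons and microglia were set beside the family. The summed level of 8 neuron markers was 5030, 4976, 5243, 5132 and 4669 CPM in the Ant-134 mice and 4707, 4643, 4657 and 4920 CPM in the Scr mice, highest in Scr replicate 4 among the Scr mice and lowest in replicate 5 among the Ant-134 mice, so that the groups overlapped. Of these 8 markers, 2 were called higher in Ant-134, where 1.49% of all genes were, and 0 lower. Both called markers are also listed as raised in the study, from these same mice. The median log2 fold change of the 8 was 0.091. All 8 were abundant, with means of at least 187 CPM, and the median was 0.032 over the 644 genes as abundant as the members. The mean standardized level of the 8 markers had r = 0.81 and rho = 0.77 with the family over the 9 mice. With the group means removed this r was 0.66. Leaving out 1 mouse gave 0 to 3 neuron markers called higher, with 0 without Ant-134 replicate 1, Ant-134 replicate 3, Scr replicate 1 or Scr replicate 3. All 8 microglia markers had a lower estimate in Ant-134 and 4 were called, where 2.69% of all genes were called lower, with a median of -0.17. Their summed level was 445 to 478 CPM in Ant-134 and 502 to 573 CPM in Scr, with no overlap of the groups. Over the 9 mice their r with the family was -0.73 and rho -0.65, values that include the difference between the groups, and with the group means removed r was -0.39. With 1 mouse left out, 3 to 5 microglia markers were called lower. The part of neurons or microglia in the differences and the covariation of the 14-3-3 genes was not tested.

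Other marker lists were examined in the same way. Of 9 hippocampus markers, 1 was called higher, where 1.49% of all genes were, and 0 lower. The number called higher was 0 without Scr replicate 1 or Scr replicate 4, and 2 without Ant-134 replicate 1 or Ant-134 replicate 2. Without Ant-134 replicate 5, 1 was called lower. The summed level was 717 to 786 CPM in Ant-134 and 676 to 738 CPM in Scr, with r = 0.64 and rho = 0.47, and r = 0.45 with the group means removed. All 9 were detected in every library. The 8 astrocyte markers (r = -0.036, median log2 fold change 0.0058) and the 8 oligodendrocyte markers (r = 0.18, median 0.011) had no gene called. With the group means removed, r was -0.15 for the astrocyte, 0.32 for the oligodendrocyte and -0.28 for the choroid plexus markers. The 6 choroid plexus markers also had none called, but their summed level ran from 66.9 to 2571 CPM in Ant-134 and from 78.6 to 2022 CPM in Scr (r = -0.29), a wide range between libraries of both groups. The summed level of 4 Y-linked genes ran from 0.427 to 198 CPM in Ant-134 and from 0.352 to 191 CPM in Scr, so both groups held mice with and without a Y chromosome, and none of the 4 was called.

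**Figure D4:**
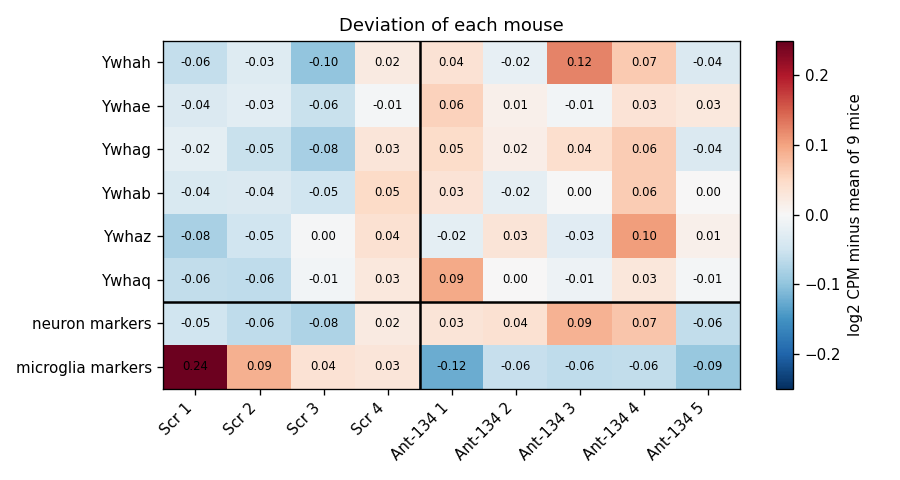
Log2 CPM of each 14-3-3 gene in each mouse minus its mean over the 9 mice, with the mean deviation of 8 neuron and 8 microglia markers below (colour and printed value). Scr replicates 1 to 3 are at or below 0 and Ant-134 replicate 4 above 0 for all 6 members, and Scr replicate 4 is above 0 for 5 of 6.

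The proteins that 14-3-3 proteins bind and the kinases that phosphorylate their binding sites were examined at the mRNA level in the same test. Of 25 client genes, 0 were called by edgeR or by DESeq2, where 4.18% of all genes tested were called by edgeR. Their estimates were higher in 15 and lower in 10, with a median log2 fold change of 0.013 and a range from -0.082 for Irs1, an insulin receptor substrate, to 0.097 for Foxo3, a transcription factor kept in the cytoplasm by 14-3-3 binding. The most abundant client was Pafah1b1, the Lis1 gene of neuronal migration, with 568 CPM in Ant-134 and 553 CPM in Scr (log2 fold change 0.037, SE 0.054). Foxo3, Hdac4 and Irs2 were each called once when a single mouse was left out.

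Among 18 kinase genes, 1 was called by edgeR, Rps6ka1, which encodes a ribosomal S6 kinase downstream of ERK. Its level was 21.94, 21.96, 21.96, 22.8 and 21.4 CPM in the Ant-134 mice and 27.0, 25.8, 24.1 and 21.6 CPM in the Scr mice. It was lower in Ant-134 than in 3 of the 4 Scr mice, and Scr replicate 4 lay within the Ant-134 range. The log2 fold change was -0.16 (SE 0.066; edgeR unadjusted p = 0.0280, Benjamini-Hochberg adjusted 0.998). The call was lost without Ant-134 replicate 5, Scr replicate 1 or Scr replicate 2. DESeq2 called Rps6ka1 and also Prkaca, a catalytic subunit of protein kinase A, with an unadjusted p of 0.0316, where edgeR gave a log2 fold change of 0.078 (SE 0.039) and an unadjusted p of 0.0673. The most abundant kinase gene, Prkacb, had 302 CPM in Ant-134 and 300.4 CPM in Scr. Over the 18 genes, estimates were higher in 9 and lower in 9. The share called was 5.56%, beside 4.18% over all genes.

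**Figure D5:**
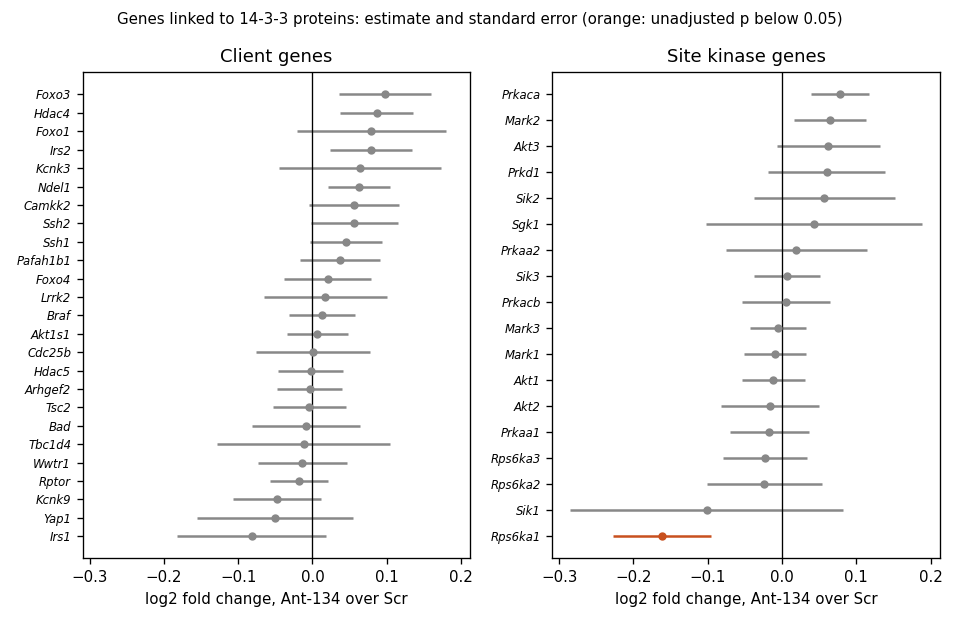
Log2 fold change with standard error, Ant-134 over Scr (horizontal axes), of 25 client genes (left) and 18 kinase genes (right), with genes of an unadjusted edgeR p value below 0.05 in orange. Estimates lie on both sides of 0 in both lists, and Rps6ka1 at -0.16 is the only gene called.

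Sfn and the Ywhaq pseudogenes, the other 14-3-3 rows of the count table by name, were far lower than the members. Sfn, which encodes the sigma isoform of epithelia (chr4:133600556-133602168), had 18 to 49 counts per library and a mean of 0.584 FPKM, with a log2 fold change of 0.29 (SE 0.31). The pseudogene Ywhaq-ps3 had 128 to 250 counts, 2.18% of those of Ywhaq, with a log2 fold change of 0.15 (SE 0.13). Ywhaq-ps2 with 1 to 6 counts and Ywhaq-ps1 with 1 to 8 counts were too low to be tested.

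The members shared few long stretches of sequence with each other. The coding sequences were 64.4% (Ywhae and Ywhag) to 79.0% (Ywhag and Ywhah) identical over the 15 pairs, and the longest run of bases shared by a pair was 9 to 30. Of all 150-base words in the transcripts, none of Ywhab, Ywhae or Ywhag occurred in a transcript of another gene. For Ywhah the share was 1.19%, from the pseudogene Gm12428, for Ywhaz 9.96%, from the pseudogene Gm4202, and for Ywhaq 12.7%, from Ywhaq-ps3, Gm2423 and Cdk5rap2, which overlaps Ywhaq-ps3. For 75-base words the shares were 5.54% for Ywhah, 13.8% for Ywhaz, with Gm14287 and Gm17181 added to the sources, and 23.9% for Ywhaq, and again 0% for Ywhab, Ywhae and Ywhag. Gm4202 had 1301 to 2006 counts and Gm14287 had 858 to 1293, and the level of Ywhaz is uncertain by reads exchanged with them. Ywhaq-ps3 had 128 to 250 counts and Gm2423 had 80 to 132, and the level of Ywhaq is uncertain likewise. How reads with several matches were counted is not given in the sources used here.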

How the data were processed

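Poly-A-selected RNA of 9 hippocampi (5 Ant-134, 4 Scr, grouped by treatment label) was analysed. The authors mapped the reads to GRCm38 with HISAT2 2.0.5 and deposited counts per gene from featureCounts 1.5.0-p3, without normalization, and FPKM values. Strand and multiple-match settings are not given in the sources used here. The deposited FPKM equalled FPKM recomputed from the counts within a factor of 0.978 to 1.007. Libraries held 28583298 to 41978113 counts, and counting errors are lower limits because PCR duplicates cannot be told apart. No pair of libraries of the same group agreed within sampling noise (chi-square per gene 8.30 to 21.1).

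Counts were tested with edgeR 4.0.16 in R 4.3.3 (TMM, filterByExpr with a minimum count of 10, robust quasi-likelihood test, Benjamini-Hochberg adjustment). This test was first run on simulated data with changes far larger than those of the members. DESeq2 1.42.0, limma 3.58.1 on log2 FPKM with a pseudocount of 1 or 0.1, other filters and scalings, a covariate of Y-linked genes and leaving out each mouse were alternatives. Log2 CPM used a prior count of 2. Exact permutation tests used SciPy 1.17.1.

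Transcripts came from GENCODE M21, which held 99.9% of the genes, and promoters and miR-134 from RefSeq (GRCm38.p6). The text names all members, other 14-3-3 rows, and from both pathway lists the genes with an unadjusted p value below 0.05 (at most 4) and the most abundant gene. It also names the 5 genes most correlated with the family. Irs1, Foxo3, Hdac4, Irs2, Prkaca and the pseudogenes sharing sequence were chosen after their values were seen. One client gene is not reported here and is in no count of the list. The members and all lists were chosen with earlier results of these data known.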

Additional observations from a re-analysis of the deposited data

Results flagged for a closer look

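Within groups, 34 sets of values were examined for a mouse far from the others, of which chance gives 1.7, and 3 were found. Ywhab was 611 CPM in Scr replicate 4, against 572 to 577 CPM in the other Scr mice. Ywhah made up 25.3% of the family's FPKM in Ant-134 replicate 3, against 23.3% to 23.8% in the other Ant-134 mice. Ywhag made up 19.6% of it in Ant-134 replicate 5, against 20.01% to 20.2% in the others.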

How the results depend on the processing

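Over 19 alternatives, all 114 log2 fold changes of the members were above 0, from 0.020 to 0.098, and a member was called in 1, Ywhae in DESeq2. The number of genes called over all genes rose from 827 to 1775 without a filter on low counts and to 1561 in limma on log2(FPKM + 1) without a filter. Leaving out 1 mouse gave 0 to 1 client genes called (1 without Ant-134 replicate 1, Scr replicate 1 or Scr replicate 4) and 0 to 2 kinase genes. DESeq2 and the 3 limma settings each called 2 kinase genes. Of the 6 members, 1 kept its place in the order of levels when CPM was not divided by length and 2 did with the length of the longest coding transcript. The replicate numbers share nothing but a number (correlations of deviations -0.115 to 0.0120, and no sample was closest to its own number). With the replicate block, 808 genes, 0 client genes and 0 kinase genes were called, so that the call of Rps6ka1 was lost. The median correlation between members was 0.67 and, with the group means removed, 0.47. In edgeR the log2 fold changes of the members were 0.85 (Ywhab) to 1.72 (Ywhah) times their standard errors, although counting error was small. The smallest difference that 9 mice can show was not tested.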
